A study of Homo sapiens with 131 samples.

Results

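The genes described here encode subunits of the 3 SMC (structural maintenance of chromosomes) complexes, namely SMC1A, SMC3, RAD21 and STAG2 of cohesin, SMC2, SMC4, NCAPH and NCAPD2 of condensin, and SMC5 and SMC6 of the SMC5/6 complex. They were taken by gene name from the deposited tables, and the 10 genes were found among 60708 genes in the table of gene TPM. Of these, 8 also had an unspliced count and a copy state. SMC1A and STAG2 lie on the X chromosome, which the study left out of its copy-number calls for these cells together with chromosomes 1 and 15.

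All 3 complexes are rings built on a pair of SMC proteins, whose ATPase heads are bridged by a further subunit. Cohesin holds the sister DNAs together from their replication until anaphase and extrudes chromatin loops in interphase, condensin folds chromosomes for mitosis, and SMC5/6 acts in the repair and replication of DNA. Because sister chromatids are made in S phase, cohesin has to be loaded and acetylated while the forks move, whereas condensin does its main work after S phase has ended.

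The cells were HAP1 (labelled HAP-1), a near-haploid human line derived from a chronic myeloid leukaemia line that carries BCR-ABL1. Single cells were stained for DNA content with a Hoechst dye and sorted in mid-S phase, and the labels name no treatment, genotype or further group. RNA and genomic DNA of each cell were separated in 1 µl of lysis buffer (the scRR1 protocol) and sequenced as total RNA and as replicated or unreplicated DNA. The RNA was taken from the supernatant of the lysate, and the study treats this fraction as cytoplasmic.

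The analysis covered 56 cells. The replication score, the percentage of called 40-kb bins at 2 copies, ran from 39.7% to 67.2% with a median of 54.1%, and 55 cells lay between 40% and 70%. Between 12045 and 15028 genes reached a TPM of 1 per cell, and unspliced counts summed to between 425181 and 1353931 per cell. The study states that libraries were reduced to an equal number of reads, so read depth per cell is not known from the TPM table. The cells fell into 2 library sets by cell number, a split found from the values that the labels do not give. The first held 29 cells up to number 65 and the second 27 later ones. The mitochondrial share of TPM was 4.98% to 18.3% in the first and 2.57% to 5.55% in the second. The median score was 50.5% in the first set and 56.6% in the second. The 8 S-phase markers were detected in all 56 cells, as were 10 of 12 genes of the G2/M programme, and BCR and ABL1 were each detected in at least 49 cells.

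Transcripts of all 10 genes were present in these cells, and the complexes differed in level. Cohesin and condensin genes had median TPM between 58.5 and 257, whereas SMC5 and SMC6 had medians of 30.3 and 22.1. TPM is corrected for gene length, but the length used for the correction is not stated. The length listed beside the values is the full gene span in 100% of genes. Annotated exonic length ran from 6470 bases for SMC2 and NCAPD2 to 15505 for SMC3 and 15987 for STAG2. The order of the genes by TPM therefore depends on the length used. Over 13142 genes, log2 mean TPM had a slope of −0.033 on log2 of span over exonic length. The order of the 10 genes under other lengths was not tested.

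Among the cohesin genes, STAG2, the accessory subunit of the ring and a gene often mutated in cancers, had a TPM of 74.8 in the lowest cell, 256 at the median and 505 in the highest. RAD21, the kleisin that closes the ring and is cut by separase at anaphase, ranged from 68.8 through a median of 217 to 434. SMC1A, an SMC subunit of the ring, ranged from 38.7 through 122 to 236. SMC3, its SMC partner and the subunit that is acetylated in S phase, was lower, with a lowest TPM of 0, a median of 77.4 and a highest of 183. SMC3 was listed at 0 in 1 of the 56 cells, a cell with a score of 42.3% and 12773 genes detected. By median the ring subunits were thus at unequal TPM, with RAD21 and STAG2 above SMC1A and SMC1A above SMC3.

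Among the condensin genes, SMC4, an SMC subunit shared by condensins I and II, was the highest of all, with a lowest TPM of 100.5, a median of 257 and a highest of 535. SMC2, its SMC partner in both condensins, was lower at 5.37, 74.6 and 171. NCAPD2, a HEAT-repeat subunit of condensin I, had 117, 217 and 347, the narrowest range of the 10 genes as a ratio of highest to lowest. NCAPH, the kleisin of condensin I, had 0, 58.5 and 145 and was listed at 0 in 2 cells. By median the SMC pair of condensin was further apart than that of cohesin. SMC5 ranged from 1.53 through 30.3 to 139.9 TPM, and SMC6 from 0.26 through 22.1 to 116. Cells of low and high TPM overlapped between all neighbouring genes of the order.

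Neighbours in the order of medians were compared within cells by a paired sign-flip permutation test (two-sided, 100000 resamples, adjusted over the 9 neighbouring pairs). RAD21 exceeded SMC1A in 54 of 56 cells, by 0.88 ± 0.08 (SE) on the log2(TPM + 1) scale, and SMC1A exceeded SMC3 in 45 of 56 cells, by 0.92 ± 0.17. The adjusted permutation p was 4.5e-05 for both, and their unadjusted permutation p of 1e-05 was the smallest that these resamples could give. SMC2 exceeded NCAPH by 0.55 ± 0.21 in 37 of 56 cells and NCAPH exceeded SMC5 by 0.72 ± 0.26 in 44 of 56 cells (adjusted permutation p = 0.0150 for both). The other 5 neighbouring pairs did not differ beyond their spread. They were SMC4 and STAG2 (adjusted permutation p = 0.741), STAG2 and NCAPD2 (0.126), NCAPD2 and RAD21 (0.820), SMC3 and SMC2 (0.597), and SMC5 and SMC6 (0.102). The differences SMC2 over NCAPH and NCAPH over SMC5 did not pass in the 29 cells of the first library set alone (adjusted permutation p = 0.204 and 0.418).

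**Figure D1:**
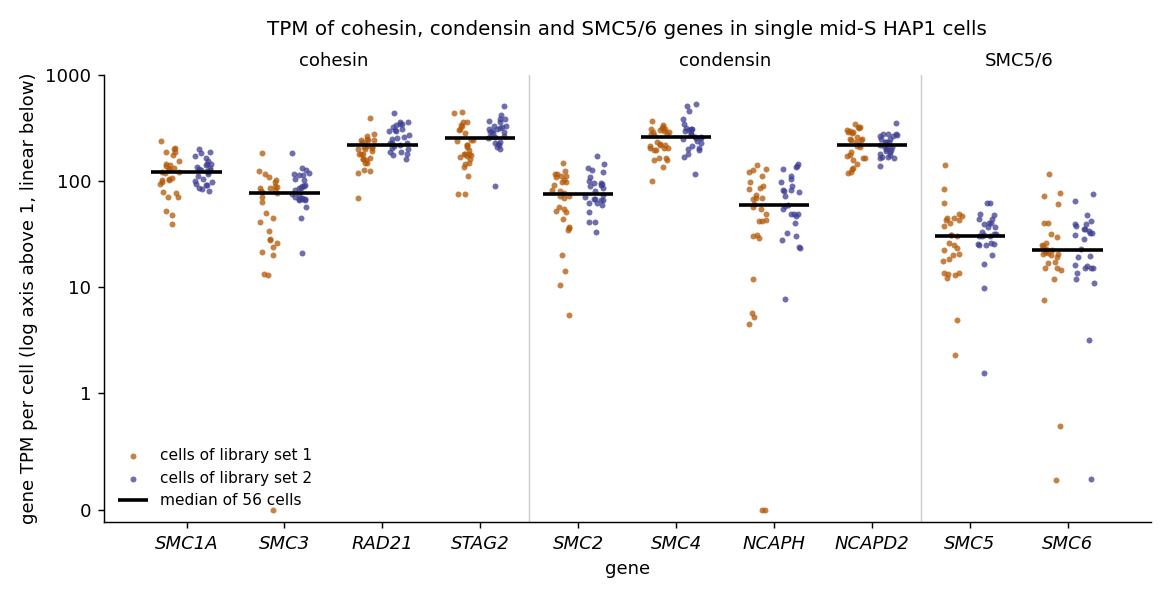
Gene TPM of the 10 genes in 56 single cells (1 point a cell, coloured by library set; black lines, medians of all cells; the vertical axis is logarithmic above 1 and linear below). RAD21, STAG2, SMC4 and NCAPD2 lie highest, with medians of 217 to 257, and SMC5 and SMC6 lowest, with medians of 30.3 and 22.1.

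The spread between cells followed the level of each gene. The coefficient of variation was lowest for NCAPD2 (26.5%) and highest for SMC6 (75.2%), and low genes vary more in such libraries. Against the trend of all expressed genes on their mean, NCAPD2 stood at the 4.93 percentile and SMC1A, with a coefficient of 33.9%, at the 9.56 percentile, so both varied less between cells than most genes of their level. The other 8 genes stood between the 17.2 and 62.2 percentiles.

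Unspliced counts separated the genes in another way from TPM. The file that holds them is named as TPM, and its values were read as counts from the study's methods, so their scale is less certain than their order between cells. SMC6, the lowest gene by TPM, had the highest unspliced count, with 50.95 in the lowest cell, a median of 263 and a highest of 1038. It was the only one of the 8 genes with a count above 0 in all 56 cells. Its annotated span is also the longest of the 8 at 136 kb. Per kb of that span it still had the highest median, 1.93 against 0.461 for NCAPD2, 0.205 for SMC5 and 0.191 for SMC2. The span holds another expressed gene, as given below. Medians were 19.7 for SMC5, 17.8 for NCAPD2, 9 for SMC2 and 0.2 for SMC3. NCAPH had a median of 0, with 27 cells above 0 and a highest count of 164.

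RAD21 and SMC4, both among the highest genes by TPM, were listed at 0 unspliced counts in all 56 cells. This was so for 139 of 996 genes (14%) with a median TPM of at least 100. In the annotation, RAD21 (from 116845934) overlaps the end of UTP23 (to 116849463) on the opposite strand (median 19.7 TPM). It also overlaps RAD21-AS1 on the opposite strand, which was above 0 in 14 cells. SMC4 (from 160399274) overlaps the edges of IFT80 (to 160399880, median 35.5 TPM) and TRIM59 (median 0.615 TPM), both on the opposite strand. RP11-432B6.3, on the opposite strand and above 0 in 1 cell, covers the whole of SMC4. GEN1, a resolvase of Holliday junctions, lies wholly within the span of SMC6 on the opposite strand (median 23.5 TPM). The SMC6 length and its value per kb were taken over that whole span, to 17800242. The RefSeq start of SMC6 used below for its promoter is at 17753810. GEN1 (17753858 to 17788946) lies wholly upstream of that start. NCAPD2 overlaps MRPL51 (median 200.1 TPM) at its start only. Whether counting used strand is not stated, so reads in these overlaps cannot be assigned with certainty. The part of these overlaps in the unspliced values was not tested.

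The 8 loci with a copy state differed in how many cells had copied them. Replication timing was read from the share of the 55 cells scored 40% to 70% in which the locus was at 2 copies, that is, replicated. NCAPH on chromosome 2, NCAPD2 on chromosome 12 and SMC5 on chromosome 9 were at 2 copies in 55 of 55 cells (exact 95% interval 93.5% to 100%). SMC4 on chromosome 3 was at 2 copies in 52 of 55 cells (94.5%, 84.9% to 98.9%), and SMC6 on chromosome 2 in 41 of 55 (74.5%, 61% to 85.3%). The median over 45404 genes with calls was 81.8%, so the 3 condensin genes other than SMC2 lay on the early side and SMC6 near the middle.

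The 2 cohesin genes with calls, and SMC2, were copied later. SMC3 on chromosome 10 was at 2 copies in 25 of 53 called cells (47.2%, exact 95% interval 33.3% to 61.4%) and RAD21 on chromosome 8 in 21 of 55 (38.2%, 25.4% to 52.3%). SMC2 on chromosome 9 was at 2 copies in 14 of 53 called cells (26.4%, 15.3% to 40.3%). These intervals all lie below the median of all genes. The SMC pairs of 1 complex were therefore split in time, with SMC4 copied in nearly every cell and SMC2 in a minority, and SMC5 copied in every cell while SMC6 was still single in 14. Where both loci were called, 36 cells had SMC4 at 2 copies and SMC2 at 1, and 0 cells had the reverse.

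Scores of cells with 1 and 2 copies of a locus are given as a description. The score counts copied bins of the same cell, so a higher score with 2 copies is built into it. The median score was 58.5% in cells with 2 copies of SMC3 against 50.2% in those with 1, and 55.7% against 48.3% for SMC6. The gap was smaller for RAD21 (55.7% against 52.1%) and for SMC2 (55.4% against 53.3%), and a cell scored 40.1% already had 2 copies of both. SMC6 was at 2 copies and SMC3 at 1 in 17 cells, and the reverse was seen in 1 cell. The order was looser among the late loci. SMC3 was ahead of RAD21 in 14 cells and behind it in 10, and RAD21 was ahead of SMC2 in 14 cells and behind it in 8.

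The surroundings of the genes differed as well. Within 1 Mb of its centre, SMC5 lay in a domain copied in 90.9% to 100% of cells. SMC6 sat close to a local peak of 78.4%, in a stretch that reached 0% on its left side in the plot of the loci. SMC3 lay on a slope between 81.8% on its left and 0% on its right. RAD21 lay on a slope from 60% to 5.45%. SMC2 lay in a late stretch, at 18.2% at its lowest, that rose on its right to 52.7% at 422 kb and 89.1% near the far edge of the window. SMC3, RAD21 and SMC6 thus lay on slopes or a narrow peak of replication timing, and SMC5 in a stretch of even timing. The windows of NCAPD2 (5.45% to 100%), NCAPH (18.4% to 100%) and SMC4 (38.2% to 97.9%) also covered wide ranges.

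**Figure D2:**
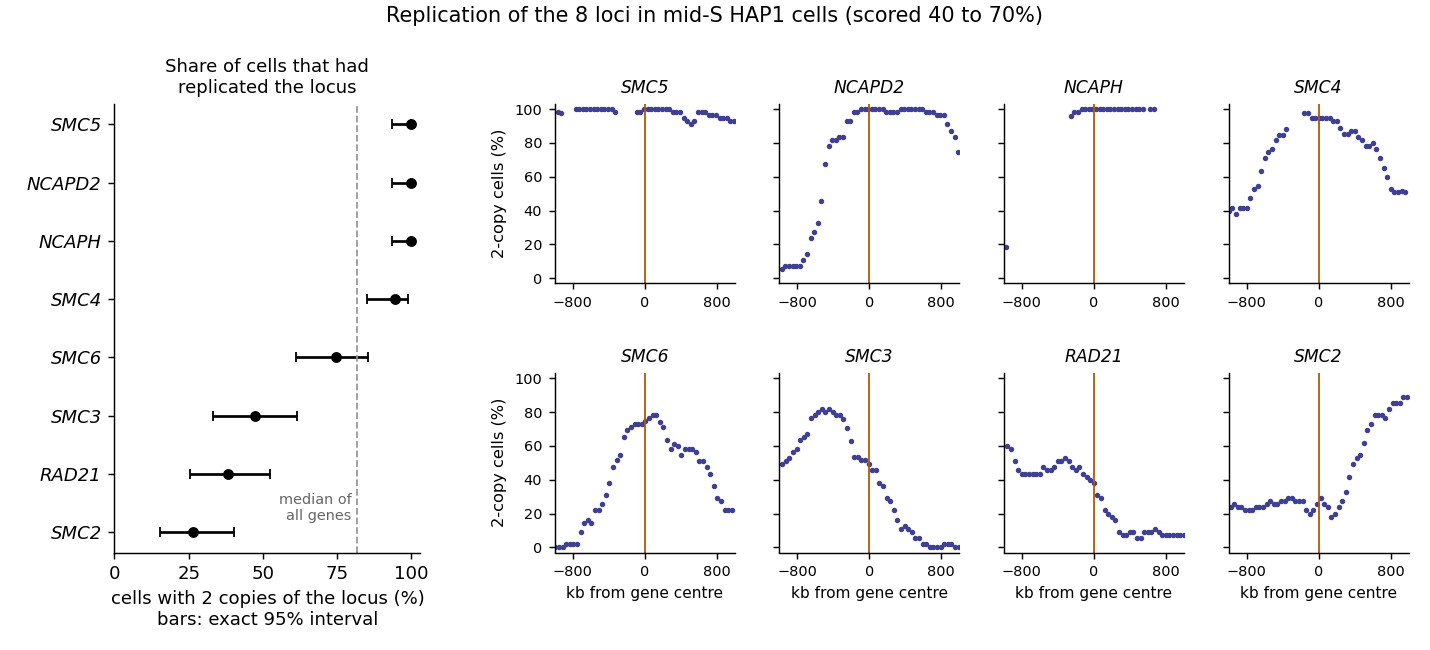
Left, percentage of 55 cells with 2 copies of each of the 8 loci (points) with exact 95% intervals (bars) and the median of all genes (dashed line). Right, the same percentage for each 40-kb bin within 1 Mb of the gene centre (orange line). SMC5, NCAPD2, NCAPH and SMC4 lie in early domains at 94.5% to 100%, and SMC3, RAD21 and SMC2 lie at 26.4% to 47.2%.

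Copying of a gene within S phase changes its dose, and the design allows RNA to be compared between cells with 1 and 2 copies of the same locus. Only SMC3, RAD21, SMC2 and SMC6 had enough cells in both states. SMC6 passed at an unadjusted p under 0.05 in spliced TPM, whose values equal gene TPM, and 1 of 4 genes is to be set against a background of 8.55% of 2455 genes tested, or 5.82% with higher values at 2 copies. No gene of the 2455 passed after adjustment over all genes (lowest adjusted p = 0.234).

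SMC6 had a lowest TPM of 0.27, a median of 25.6 and a highest of 77.1 in 41 cells with 2 copies, and 0.26, 16.1 and 116 in 14 cells with 1 copy. The groups overlapped over nearly their whole range. The difference was 0.73 ± 0.43 (SE) on the log2(TPM + 1) scale (Wilcoxon p = 0.0138, permutation p = 0.0126, Benjamini-Hochberg adjusted p = 0.457). Within the library sets it was 0.76 and 0.69. It did not pass after the score was regressed out (0.49, p = 0.0570) or in cells scored 45% to 65% (0.19, p = 0.264), and the score itself differed between these cells as given above.

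RAD21 had a TPM of 68.8, 243 and 434 (lowest, median, highest) in 21 cells with 2 copies and 118, 206 and 336 in 34 cells with 1 copy, a difference of 0.21 ± 0.15 (Wilcoxon p = 0.0602, permutation p = 0.0599). The highest cells were in the 2-copy group and so was the lowest. With the mean of each library set subtracted, the difference was 0.25 and passed (p = 0.0106). With the score regressed out it was 0.15 (p = 0.158), and in cells scored 45% to 65% it was 0.15 (p = 0.173). The summed TPM of the 12 genes of the G2/M programme had a median of 2534 in the 2-copy cells and 2294 in the 1-copy cells. SMC2 had medians of 92.1 in 14 cells with 2 copies and 73.1 in 39 cells with 1 copy (0.22 ± 0.30, p = 0.215, permutation p = 0.213). SMC3 had 80.96 in 25 cells and 74.7 in 28 cells (0.59 ± 0.31, p = 0.203, permutation p = 0.205). All 4 differences were above 0 with overlapping groups. A doubling, 1 on the log2 scale, lies within 2 standard errors of the differences of SMC3 and SMC6 and outside those of RAD21 and SMC2, and no change lies within 2 standard errors of all 4.

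In unspliced RNA, SMC3 passed at an unadjusted p, 1 of 3 genes tested against a background of 6.71% of 3159 genes, or 3.77% with higher values at 2 copies. Its count had a median of 0.6 and a highest of 84 in 25 cells with 2 copies, and a median of 0 and a highest of 29 in 28 cells with 1 copy, a difference of 1.00 ± 0.49 on the log2(value + 1) scale (Wilcoxon p = 0.0098, permutation p = 0.00889, Benjamini-Hochberg adjusted p = 0.573). Most cells were at or below 1 in this measure. After regression on the score the difference was 0.38 (p = 0.702), and edgeR's quasi-likelihood test on all 10739 genes gave a log2 difference of 1.60 ± 0.86 (p = 0.0687). SMC6 had medians of 270.1 in 41 cells and 213 in 14 cells (0.38 ± 0.30, p = 0.220, permutation p = 0.221) and SMC2 13.6 and 8 (−0.23 ± 0.85, p = 0.736, permutation p = 0.734).

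Among the 32 other genes of these pathways, 9 could be tested for spliced TPM between copy states and 1 passed at an unadjusted p, near the background of 8.55% given above. NSMCE2, the SUMO ligase of the SMC5/6 complex, had a median of 52.6 TPM in 25 cells with 2 copies and 31.9 in 30 cells with 1 copy (Wilcoxon p = 0.0321, Benjamini-Hochberg adjusted p = 0.515). It lies at 0 in some cells, with 47 of 56 cells above 0. ESCO2, which acetylates SMC3 in S phase, had medians of 42.1 and 37.1 (p = 0.467), and NCAPG, a condensin I subunit, 160.1 and 145 (p = 0.264). In unspliced counts 6 of the 32 could be tested and none passed.

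**Figure D3:**
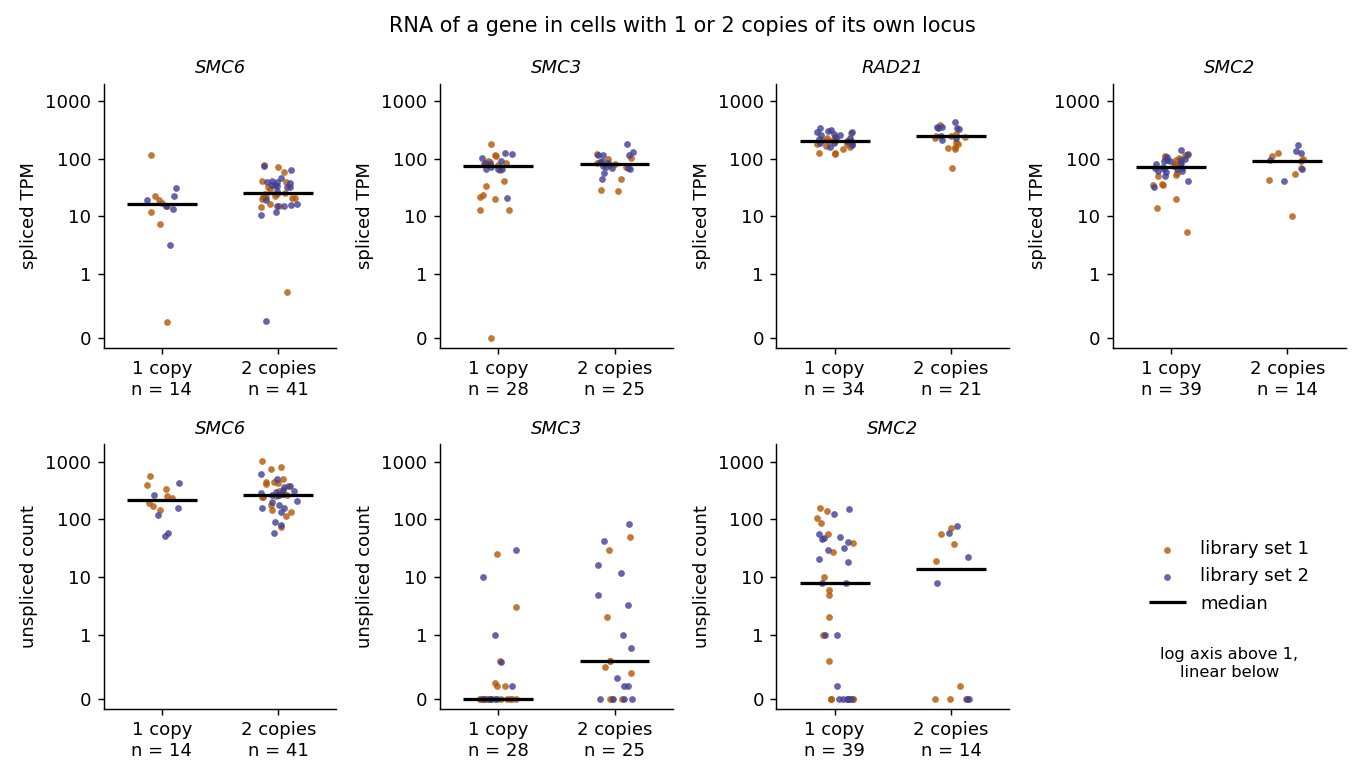
Spliced TPM (top) and unspliced counts (bottom) in single cells with 1 or 2 copies of the gene's own locus (1 point a cell, coloured by library set; black lines, medians; axes logarithmic above 1 and linear below). The medians of SMC6 TPM are 16.1 and 25.6, and the points of the groups overlap in every panel.

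Cells later in S phase did not have detectably different TPM of these genes. None of the 10 passed the GAM test against the replication score after adjustment over 17132 genes (lowest adjusted p = 0.332 by the GAM, 0.340 by limma's straight line). At an unadjusted p under 0.05, 1 of the 10 passed by either tool, STAG2, against 10.4% of all genes by the GAM and 9.51% by limma, so the share was near the background. After adjustment over all genes the GAM called 7 (0.0409%), and 2 of them rose (0.0117%), so calls were rare at this number of cells.

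STAG2 had the lowest p, with a slope of 0.27 ± 0.10 (SE by limma) on the log2(TPM + 1) scale per 10 points of score (GAM p = 0.00687 unadjusted). The slope was 0.20 with the library set as a term (unadjusted p = 0.0546), and 17.6% of all genes had a higher slope than STAG2. When the 2 cells with the most extreme scores were left out, STAG2 had a slope of 0.27 at an unadjusted p of 0.102 by the GAM, and SMC5 (0.0179) and RAD21 (0.0365) were under 0.05 in its place, none of them after adjustment. SMC3 had 0.37 ± 0.19, SMC6 0.34 ± 0.22, SMC5 0.27 ± 0.18 and RAD21 0.16 ± 0.09. SMC4, SMC1A and NCAPD2 were near 0, at 0.05 ± 0.09, 0.03 ± 0.10 and 0.02 ± 0.08. For these 3 a change of 0.30 per 10 points lies outside 2 standard errors.

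All 10 slopes were above 0, with a median of 0.15, whereas 52.3% of all genes had a slope above 0 and the median over all genes was 0.01. With the library set as a term, 7 of the 10 were above 0 and the median was 0.06. The slopes of SMC1A, SMC4 and NCAPH were then −0.0009, −0.003 and −0.09. The median slope was 0.22 for the 4 cohesin genes and 0.06 for the 4 condensin genes. The difference between the complexes was not tested. The slopes did not differ detectably between the library sets (limma interaction, lowest unadjusted p = 0.143, for NCAPH).

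**Figure D4:**
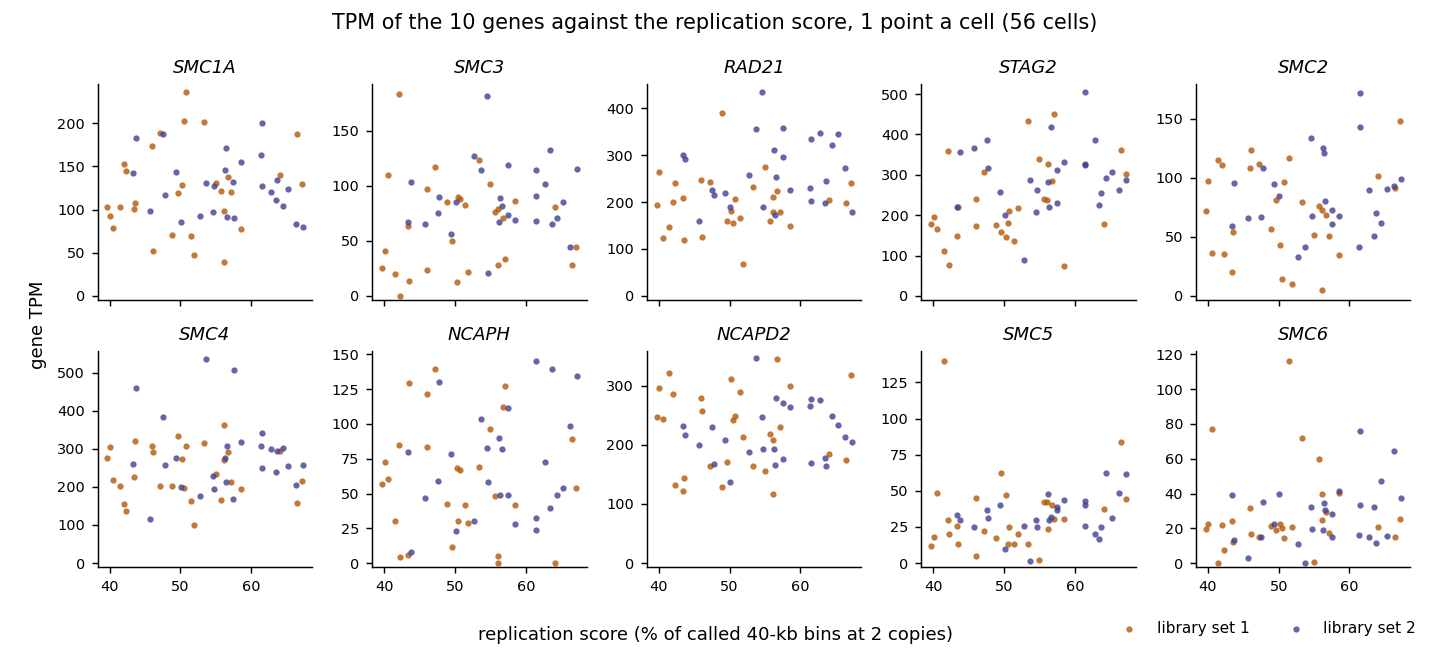
Gene TPM of each gene against the replication score (percentage of called 40-kb bins at 2 copies) in 56 cells, coloured by library set. STAG2 has the lowest p of the 10 with a slope of 0.27 per 10 points on the log2 scale, and SMC1A, SMC4 and NCAPD2 are close to level.

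Unspliced counts of 5 of the genes could be tested against the score, and none passed edgeR's test after adjustment over 10739 genes, of which 288 passed (2.68%) and 149 rose (1.39%). SMC3 alone of the 5 had an unadjusted p under 0.05, 0.0263, against 12.3% of all genes, and a slope of 1.29 ± 0.57 on the log2 scale per 10 points (edgeR adjusted p = 0.301). DESeq2's Wald test called none of the 5 either. SMC6, with the most counts, had a slope of 0.26 ± 0.17.

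Among the 32 pathway genes, 29 were expressed and none passed against the score by the GAM. At an unadjusted p under 0.05, 4 of the 29 passed, against the 10.4% of all genes given above. STAG1, the paralogue of STAG2 in the other form of cohesin, had the lowest p (slope 0.64, GAM p = 0.00559 unadjusted, 0.320 adjusted) and a median of 36.9 TPM. NSMCE2 (slope 0.87), PTTG1, the securin that holds separase inactive (0.26), and SGO1, which protects centromeric cohesin (0.54), were the others. With the library set as a term STAG1 (0.60, unadjusted p = 0.0158) and PTTG1 (0.29, p = 0.0202) were still under 0.05, and NSMCE2 (0.54, p = 0.153) and SGO1 (0.39, p = 0.0600) were not. NIPBL, the cohesin loader, had a median of 41.4 TPM and WAPL, which releases cohesin, 33.0. In unspliced counts 22 of the 32 were tested by edgeR against the score, and none passed after adjustment (1 at an unadjusted p under 0.05, against 12.3% of all genes). Of the meiotic subunits, SMC1B was above 0 in 2 of 56 cells, RAD21L1 in 3, REC8 in 25 (highest TPM 89.6) and STAG3 in 41 (median TPM 1.59, highest 40.1).

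The split into library sets was found from the values of these cells, so p-values between the sets are a description only. RAD21 differed between the sets in TPM. It had 68.8, 199 and 390 TPM (lowest, median, highest) in the first set and 161, 254 and 434 in the second, with overlap over most of the range. The difference was 0.41 ± 0.13 on the log2 scale with the score as a covariate (limma adjusted p = 0.0463), 1 of 10 genes against 6.05% of 17132 genes called, or 3.32% higher in the second set. It did not pass without the filter on low values (adjusted p = 0.0730). STAG2 had medians of 210.4 and 287 (0.32 ± 0.16, adjusted p = 0.241) and SMC3 70.8 and 85.4 (0.66 ± 0.31, adjusted p = 0.208). NCAPD2 had 230.2 and 213 (−0.005 ± 0.13), a difference smaller than its error. Of the 29 expressed pathway genes none passed between the sets by limma (4 at an unadjusted p under 0.05, against 20.9% of all genes). The G2/M programme had summed medians of 2069 and 2440 TPM in the sets.

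Transcripts of a complex varied together weakly from cell to cell. Spearman correlations over the 56 cells, with the mean rank of each library set subtracted, are a description, since all cells came from 1 experiment and TPM within a cell sums to a fixed total. The 6 pairs of cohesin genes had a median of 0.181 and a highest of 0.414, for SMC1A and STAG2, both on the X chromosome. The 6 pairs of condensin genes had a median of 0.17, with the highest, 0.302, for SMC2 and NCAPH. All 12 pairs were above 0 over the 56 cells, and 1 was below 0 in the first set alone and 4 in the second. The 32 pairs across complexes had a median of 0.0885, with 20 above 0, and the lowest was −0.249, for SMC1A and SMC6. SMC5 and SMC6 had 0.190. These are weak correlations between single cells, and no difference between the kinds of pair was tested.

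Summed over the complex, cohesin and condensin transcripts were both positively correlated with the G2/M programme, with no test made. The 4 cohesin genes summed to between 355 and 1154 TPM per cell with a median of 707, and the 12 G2/M genes (CCNB1, CDK1, TOP2A, MKI67, PLK1, AURKA, AURKB, CENPF, UBE2C, BUB1, NUSAP1 and TPX2) to between 1374 and 3786 with a median of 2360. Their correlation over cells was 0.660, and 0.606 with set means subtracted. It was 0.604 with the score also removed and 0.558 without TOP2A, the most abundant gene of the sum. It was 0.709 in the first library set and 0.454 in the second. Without RAD21 the cohesin sum had 0.478, which was 0.673 in the first set and 0.132 in the second, so the value in the second set rested on RAD21. Without STAG2 it had 0.555.

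Over all cells RAD21 and STAG2 had the highest values of the 10 genes. The order differed between the sets, with STAG2 above RAD21 in the first. RAD21 had 0.592 with the G2/M sum (0.592 in the first set, 0.645 in the second) and STAG2 0.462 (0.613 and 0.201). SMC1A had 0.291 and SMC3 0.164, and both were near 0 in the second set (−0.0446 and −0.0574). The median over 17132 single expressed genes with the same G2/M sum was −0.0005. The condensin sum, with a median of 635 TPM, had 0.352 (0.246 in the first set and 0.486 in the second, where it was above cohesin). SMC4 alone had 0.338 (0.213 and 0.455) and NCAPD2 0.216 (0.0581 and 0.586). In the second set NCAPD2, SMC4 and NCAPH (0.262) were thus above STAG2. SMC5 and SMC6 had −0.0952 and −0.0154. With the sum of the 8 S-phase markers, cohesin had 0.188 and condensin 0.174. The G2/M sum itself had a correlation of 0.547 with the score and the S-phase sum one of −0.503.

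The expressed genes whose TPM was most like the cohesin sum were TOP2A (0.592), the topoisomerase that decatenates sister DNAs, XRCC5 (0.550), the Ku80 subunit of end joining, LAP3 (0.546), TMX1 (0.544) and PLSCR1 (0.530). Those most like the condensin sum were NUP155 (0.501), a nuclear pore protein, YIPF3 (0.494), LRPPRC (0.487), EBF3 (0.470) and NPM1 (0.469). TOP2A stood first of 17132 genes for cohesin and is a member of the G2/M list.

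**Figure D5:**
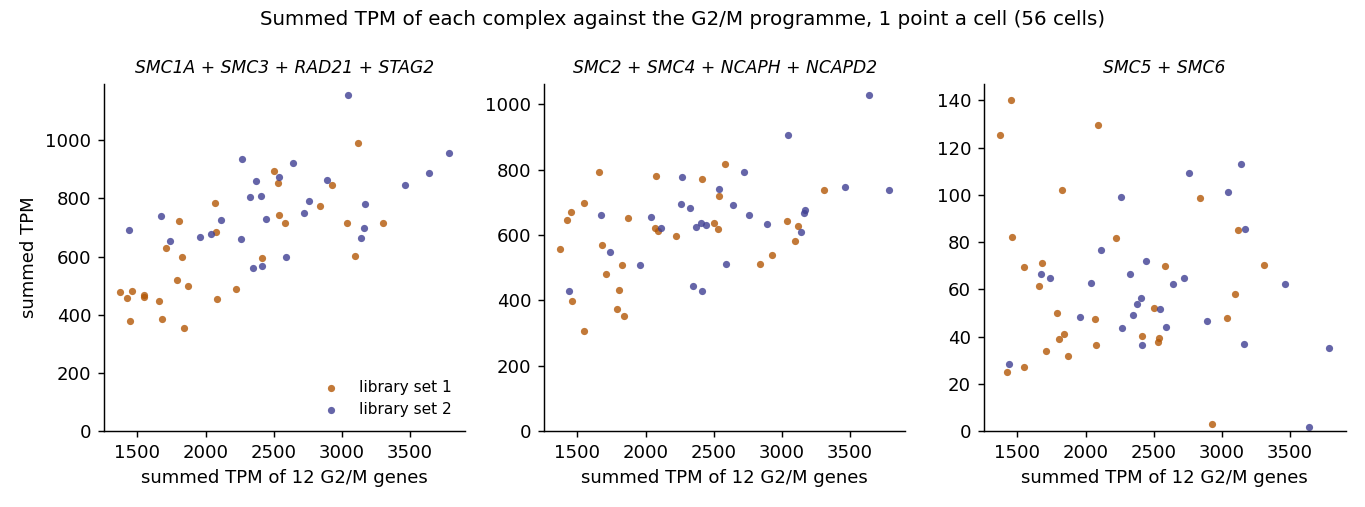
Summed TPM of the cohesin genes (left), condensin genes (middle) and SMC5 and SMC6 (right) against the summed TPM of 12 G2/M genes in 56 cells, coloured by library set. The correlations are 0.660 for cohesin and 0.398 for condensin, and the points of SMC5 and SMC6 form no band.

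Many genes of the G2/M programme carry a CHR (cell cycle genes homology region) beside CCAAT boxes near their start, and genes of S phase carry E2F sites, so these letters were looked for in the promoters as context for the correlations. The 250 bases before each RefSeq start (GRCh38.p14) were searched on both strands. The CHR was searched as TTTGAA and the CCAAT box by the letters of its name. E2F sites were searched in 2 forms, a first written GCGCGAAA and a second written GGCGGGAA. Windows were given for 9 of the 10 genes, RAD21 not among them. STAG2 had 3 windows, SMC1A, SMC2 and SMC4 had 2 each, and the others had 1. A gene is named where any of its windows held the letters, whereas the background shares are per window. The CHR letters were found in SMC3, SMC4 and NCAPD2, and in 13.3% of 35116 windows and 9.16% of those of expressed genes. The CCAAT box was found in STAG2, NCAPH and NCAPD2, and in 32% of all windows and 33% of those of expressed genes. The first E2F form was found in SMC6 only, and in 0.439% of all windows and 0.739% of those of expressed genes. The second form was found in none of the 9 genes, and in 2.72% and 4.1% of these windows. The stretches that hold these letters are shown for the 4 genes with the CHR or E2F letters, 5′ to 3′ on the strand of the gene, with matches on either strand in capitals. They are NCAPD2 at chr12:6493897-6494081 (plus strand), SMC4 at chr3:160399535-160399620 (plus), SMC3 at chr10:110567505-110567590 (plus) and SMC6 at chr2:17753832-17753917 (minus). The SMC6 stretch also holds the annotated start of GEN1 (17753858) on the opposite strand.
NCAPD2: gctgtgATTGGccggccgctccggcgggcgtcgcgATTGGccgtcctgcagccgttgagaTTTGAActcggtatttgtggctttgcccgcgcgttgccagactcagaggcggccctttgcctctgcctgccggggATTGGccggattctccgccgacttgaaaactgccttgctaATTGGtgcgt
SMC4: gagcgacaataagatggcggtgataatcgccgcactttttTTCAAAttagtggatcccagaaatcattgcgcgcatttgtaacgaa
SMC3: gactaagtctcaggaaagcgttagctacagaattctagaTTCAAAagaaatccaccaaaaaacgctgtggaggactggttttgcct
SMC6: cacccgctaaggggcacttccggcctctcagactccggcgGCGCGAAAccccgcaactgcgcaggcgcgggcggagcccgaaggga

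NCAPD2 was the only one of the 9 genes with the CHR letters and a CCAAT box together. Its CHR letters begin 145 bases before the start, and 4 CCAAT boxes lie around them, all on the opposite strand. Its TPM had a correlation of 0.216 with the G2/M sum over all cells, below that of SMC4 (0.338). SMC4 has CHR letters 75 bases before the start in the first of its 2 windows only, and no CCAAT box. STAG2, with 0.462, has a CCAAT box in windows 1 and 3 of its 3 windows but no CHR letters. In the second library set NCAPD2 (0.586) was above both SMC4 (0.455) and STAG2 (0.201), and in the first (0.0581) below both. A match of letters is not a site of binding.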

How the data were processed

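RNA and DNA were measured in the same sorted cell. The authors aligned RNA reads to hg38 and counted them per gene on GENCODE genes with the ramdaq pipeline. Gene TPM and spliced TPM (length-corrected transcript abundance) were deposited by the authors, and the values of both tables were identical for the 45404 genes in both. The unspliced table deposited by the authors was read as holding expected counts, since the methods describe exon counts subtracted from gene-body counts with negatives set to 0. Its file name says TPM, and its sums per cell (425181 to 1353931) reach above the library size to which the study says reads were reduced, so the scale is uncertain. The strand setting of the counting is not given. DNA reads were aligned with BWA 0.7.17-r1188, and the deposited state of each gene was a call of 1 or 2 copies from 40-kb bins. The DNA and RNA libraries were matched by cell number. In the labels, 63 mid-S cells have both libraries, and 7 of them and 5 G1 DNA libraries were not analysed here.

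The 17132 genes that reached a TPM of 1 in 20% of cells or more were tested against the replication score with a generalized additive model (GAM; mgcv 1.9.3) of log10(TPM + 1), and between library sets with limma 3.58.1 on log2(TPM + 1) with the score as a covariate. Unspliced expected counts were rounded and tested with edgeR 4.0.16 (quasi-likelihood, TMM) where over 50% of cells were above 0. Copy states were compared with a two-sided Wilcoxon rank-sum test at an unadjusted p under 0.05, as in the study, in genes above 0 in over 50% of cells with neither state in over 80% of called cells. The 100000-resample permutation p is given beside it for the genes described. All p-values of the model fits were adjusted over all genes tested by the Benjamini-Hochberg method. Differences are on the log2(value + 1) scale, which understates changes of low values. Intervals of shares are exact (Clopper-Pearson, 95%) and cover counting error only.

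Cells are the unit of all tests and came from 1 experiment, so p-values measure the spread between cells. The labels give no batch. The library sets split the cells at number 65, a split found from the values. The 10 genes, the lists of other genes and the split were chosen with earlier results of these data known, and the promoter motifs were chosen after the values were seen. All 10 genes are named. Of the 32 pathway genes, values are given for those past a test and for some of 10 others on a written list. The 5 genes most alike each complex were named by Spearman correlation. Alternatives tried were other pseudocounts, filters, size factors (DESeq2 1.42.0), tools, score ranges and library-set terms.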

Additional observations from a re-analysis of the deposited data

How the results depend on the processing

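No paired analysis was possible because no groups with shared replicate numbers were compared, the DNA and RNA libraries of a number coming from the same cell. The count of the 10 genes called against the score stayed at 0 under all alternatives run. The limma fit with the library set as a term and the variants of the G2/M correlation were chosen after seeing the data. For copy state in spliced TPM, where 1 of 4 passed, 0 passed with the score regressed out, 0 in cells scored 45% to 65%, and 2 with library-set means subtracted. In unspliced counts, where 1 of 3 passed, 0 passed under each of these 3 and with edgeR. RAD21 was the 1 gene differing between library sets, and 0 passed without the filter on low values. Neighbouring pairs in the TPM order that differed numbered 4, and 2 in the first and 7 in the second library set alone. Direction turned in results that had not passed the test. These were, in log2 units, NCAPH (-0.091 with library set as a term, by the GAM and by limma, and -0.030 with log10(TPM + 0.1)), SMC1A (-0.00090) and SMC4 (-0.0029) against the score with library set as a term, by both tools. SMC2 unspliced between copy states became 0.70 in cells scored 45% to 65%, and NCAPD2 (0.0092) and SMC6 (0.075) between library sets turned without the score as a covariate. In the order, NCAPD2 over RAD21 was 0.19 and STAG2 over NCAPD2 -0.041 in the first set, and SMC4 over STAG2 -0.070 and SMC3 over SMC2 0.054 in the second. Genes of any kind called against the score numbered 7 by the GAM, and 2 with library set as a term, 1 by limma with that term, and 39 without the filter. Unspliced counts gave 2.68% of genes, 0.996% with the set term and 9.72% without the filter, and library sets gave 1037 and 678 without the filter. The cause was not tested. The stated equal depth and 56 cells of 1 experiment limit what small slopes could be seen.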
